A study of Mus musculus with 9 samples.

Results

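Onecut1, Onecut2, Hnf4a, Foxa1, Foxa2, Foxa3, Cebpa and Nr5a2 encode DNA-binding proteins that set and keep hepatocyte identity. They were taken by gene symbol from the platform annotation. All 8 were measured, each by 1 feature of the array, among 22180 genes tested. The cells were TAMH, an immortal mouse hepatocyte line derived from mice that carry a TGF-alpha transgene, used between passages 30 and 40 in medium that for every group held dexamethasone, nicotinamide, gentamicin, insulin, transferrin and selenium. The groups were cells given diquat at 18 µM, cells given paraquat at 126 µM, and control cells in medium alone, all for 9 h, with 3 arrays each. Diquat and paraquat are related bipyridyl herbicides that take up electrons in cells and hand them on to oxygen. The labels describe 3 dishes per treatment of 1 cell line and do not say that the arrays came from separate cultures. The p-values therefore rest on the variation among these arrays, part or all of which may be technical.

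Hepatocyte genes are controlled by a small circuit of factors that bind one another's promoters and many shared liver enhancers. The FOXA proteins open compacted chromatin, HNF4A and NR5A2 are nuclear receptors that drive lipoprotein, clotting and bile acid genes, C/EBPA drives metabolic genes of the resting hepatocyte, and the ONECUT proteins act both in hepatocytes and in the bile duct lineage. The circuit is known to loosen when hepatocytes dedifferentiate in culture or after injury.

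Values are RMA values on a log2 scale, so a difference of 1 is a doubling, and they spanned 3.89 to 13.19 over the whole array. A change is written with its standard error from limma and its Benjamini-Hochberg adjusted p over all 22180 genes, and a gene passed the test below 0.05. The hepatocyte gene Alb averaged 12.73 in each of the 3 groups, close to the top of the range, while Cyp7a1, the rate-limiting enzyme of bile acid synthesis, lay at 4.80, 4.91 and 4.85 in diquat, paraquat and control cells, in the lower part. The 8 endothelial markers averaged between 5.69 and 5.85 on every array, where the medians over all features were 5.95 to 6.04. Dcn, a fibroblast marker, and Cd14, a macrophage marker, stood high at 11.07 and 10.14 in control cells, each the highest of its list. On control arrays the 10 stellate and fibroblast markers averaged only 7.012 to 7.059. The 8 macrophage and leukocyte markers averaged 6.595 to 6.624 there. No pair of arrays held identical values, and diquat replicate 3 lay farthest from its group mates, with a root-mean-square difference of 0.134 against 0.0714 to 0.115 for the other arrays.

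Onecut1, Foxa1 and Nr5a2 fell with both compounds, and Foxa3 and Hnf4a passed the test with diquat alone. The size of the falls ran from 2.15-fold for Onecut1 to 1.14-fold for Hnf4a. Onecut2, Foxa2 and Cebpa did not pass with either compound. With diquat 5 of the 8 factors were called lower and 0 higher, where 7.02% of all genes tested were called, 2.89% lower and 4.13% higher. With paraquat 3 of 8 were called lower and 0 higher, where 4.57% of all genes were called, 2.24% lower and 2.33% higher. These shares include dim genes, while the 8 factors averaged 7.26 to 10.63 over the arrays. With genes below the median level left out, more genes were called, 1971 with diquat and 1345 with paraquat. The shares over all genes are therefore lower than those of genes as bright as the factors. The median change of the 8 was -0.245 with diquat and -0.24 with paraquat, against -0.02 and -0.003 over all genes tested. These factors were chosen with results of these data known, and both comparisons share the control arrays. The diquat count of 5 factors dropped to 2 when control replicate 1 or 2 was left out, to 1 without control replicate 3 or diquat replicate 1, and to 3 without diquat replicate 3 or paraquat replicate 2. The paraquat count was 2 without control replicate 1 or paraquat replicate 2, and 4 without paraquat replicate 1. A fall of 1 RNA in bulk cells can come from fewer cells that make it or from less of it per cell, and the 2 cannot be told apart.

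**Figure D1:**
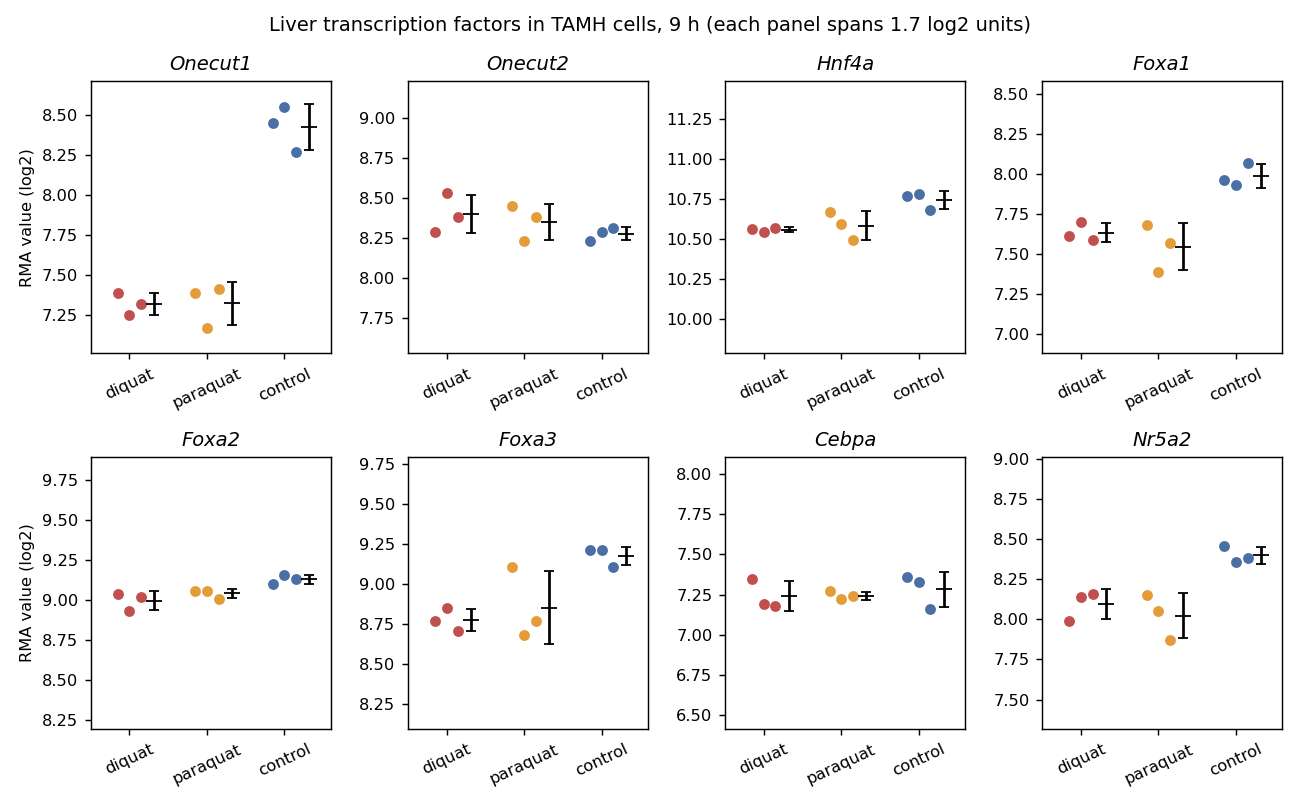
RMA values (log2, y axis) of the 8 factors on each array, with diquat, paraquat and control arrays from left to right. Points are single arrays in replicate order, and the bar beside them is the mean with its standard deviation (n = 3). Onecut1 lies between 7.17 and 7.41 on the 6 treated arrays and between 8.27 and 8.55 on the 3 control arrays.

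Onecut1 encodes hepatocyte nuclear factor 6, a cut-homeodomain activator of hepatic glucose genes and of bile duct formation. It read 7.39, 7.25 and 7.32 in diquat replicates 1 to 3, 7.39, 7.17 and 7.41 in paraquat replicates 1 to 3, and 8.45, 8.55 and 8.27 in control replicates 1 to 3. Every treated array lay below every control array, with a gap of 0.88 for diquat and 0.86 for paraquat between the nearest arrays. The mean was 7.32 ± 0.07 in diquat cells against 8.42 ± 0.14 in control cells (SD, n = 3 each), a log2 change of -1.10 ± 0.08 (SE, limma adjusted p = 3.88e-05). In paraquat cells it was 7.32 ± 0.13 (SD, n = 3), a change of -1.10 ± 0.08 (SE, limma adjusted p = 4.56e-05). The 95% interval of the fall ran from 1.89-fold to 2.44-fold with diquat and from 1.89-fold to 2.43-fold with paraquat. It was the 4th largest of 641 falls called for diquat and the 3rd largest of 497 called for paraquat. The call held in all 18 alternative settings for each compound.

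The Onecut1 promoter is shown because this gene changed most. The window holds 250 bases before and 50 bases from the RefSeq start site, at chr9:74861671-74861970 on the plus strand of GRCm38.p6, and 73% of its bases are G or C. None of the 10 motifs searched for on both strands was found in it, so it carries no capitals, and that says only that these letters are not in this window. The motifs were ATTGAT and ATCGAT for ONECUT proteins, TGTTTAC and TGTTTGC for FOXA, CAAAGTC for HNF4, AAGGTCA for NR5A2, TTGCGCA for C/EBP, TGANTCA for AP-1, TGATGCA for ATF4 with C/EBP, and TATAAA.
Onecut1: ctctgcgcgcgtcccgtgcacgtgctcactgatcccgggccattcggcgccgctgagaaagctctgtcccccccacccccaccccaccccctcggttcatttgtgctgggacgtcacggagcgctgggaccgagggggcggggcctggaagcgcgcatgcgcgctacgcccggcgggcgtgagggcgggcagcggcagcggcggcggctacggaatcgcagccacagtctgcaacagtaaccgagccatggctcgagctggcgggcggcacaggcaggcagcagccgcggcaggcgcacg

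Onecut2, the closest paralogue of Onecut1 among these factors, also binds DNA through a cut domain and a homeodomain. It read 8.29, 8.53 and 8.38 with diquat, 8.45, 8.23 and 8.38 with paraquat, and 8.23, 8.29 and 8.31 in control cells. The groups overlapped for both compounds. The log2 change was 0.12 ± 0.07 (SE, limma adjusted p = 0.342) with diquat and 0.08 ± 0.07 (SE, limma adjusted p = 0.732) with paraquat, and the 95% intervals ran from -0.03 to 0.28 and from -0.08 to 0.23. Neither interval holds a fall of the size measured for Onecut1. Measured within each array, the change of Onecut1 minus that of Onecut2 was -1.23 ± 0.14 (SE) with diquat and -1.18 ± 0.10 (SE) with paraquat. The arrays of treated and control cells did not overlap in this difference for either compound. The exact two-sided permutation test gave p = 0.1 for each, the smallest that 3 arrays against 3 allow, and 0.25 after adjustment over 10 such comparisons. The 5 pairs of relatives behind these 10 comparisons were chosen after their values were seen.

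Among the 3 FOXA genes, which encode forkhead pioneer factors, Foxa1 fell with both compounds. It read 7.61, 7.70 and 7.59 with diquat, 7.68, 7.39 and 7.57 with paraquat, and 7.96, 7.93 and 8.07 in control cells. All treated arrays lay below all control arrays. The fall was 1.28-fold with diquat (log2 change -0.35 ± 0.07 SE, limma adjusted p = 0.0149) and 1.36-fold with paraquat (-0.44 ± 0.07 SE, limma adjusted p = 0.00594). Leaving out control replicate 3 or diquat replicate 1 ended the diquat call (adjusted p = 0.0609 and 0.0558), and the paraquat call held in all 18 alternatives.

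Foxa3, abundant in adult liver, read 8.77, 8.85 and 8.71 with diquat, 9.11, 8.68 and 8.77 with paraquat, and 9.21, 9.21 and 9.11 in control cells. The diquat arrays all lay below the control arrays. With paraquat, replicate 1 equalled the lowest control array, and the other replicates lay below all controls. Foxa3 fell 1.32-fold with diquat (log2 change -0.40 ± 0.09 SE, limma adjusted p = 0.0317), and its change with paraquat was -0.32 ± 0.09 (SE, limma adjusted p = 0.098). Without paraquat replicate 1 the paraquat change was -0.45 and passed (adjusted p = 0.00311). The diquat call was lost without control replicate 1, 2 or 3 (adjusted p = 0.108, 0.116 and 0.0645) or diquat replicate 1 or 3 (0.093 and 0.0938).

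Foxa2 read 9.04, 8.93 and 9.02 with diquat, 9.06, 9.06 and 9.01 with paraquat, and 9.10, 9.16 and 9.13 in control cells. All treated arrays lay below all controls, by gaps of 0.06 and 0.04, yet the changes were small: -0.13 ± 0.04 (SE, limma adjusted p = 0.0806) with diquat and -0.09 ± 0.04 (SE, limma adjusted p = 0.345) with paraquat. Genes whose treated arrays all lay below the controls made up 11.2% of all genes with diquat and 10.4% with paraquat, and included 6 and 5 of the 8 factors. The change of Foxa1 minus that of Foxa2 was -0.22 ± 0.08 (SE) with diquat and -0.35 ± 0.10 (SE) with paraquat, with exact permutation p = 0.2 and 0.1 (adjusted 0.286 and 0.25). That of Foxa3 minus that of Foxa2 was -0.27 ± 0.08 and -0.24 ± 0.13 (SE), with exact permutation p = 0.1 and 0.3 (adjusted 0.25 and 0.375). That of Foxa1 minus that of Foxa3 was 0.05 ± 0.08 and -0.12 ± 0.10 (SE), with exact permutation p = 0.5 and 0.4 (adjusted 0.5 and 0.444). None of these passed, and with 3 arrays against 3 none could.

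Promoters of both FOXA genes that passed a test are shown to set them beside that of Onecut1, with matches to the 10 motifs in capitals. The Foxa1 window, chr12:57546062-57546361 on the minus strand of GRCm38.p6, held the FOXA motif as GTAAACA with its first base at position -141 from the start site, a motif present in 3.65% of 32851 promoter windows. The Foxa3 window, chr7:19023490-19023789 on the minus strand, held TATAAA at position -36, present in 13.6% of windows. A match describes the letters and is not a measured binding site.
Foxa1: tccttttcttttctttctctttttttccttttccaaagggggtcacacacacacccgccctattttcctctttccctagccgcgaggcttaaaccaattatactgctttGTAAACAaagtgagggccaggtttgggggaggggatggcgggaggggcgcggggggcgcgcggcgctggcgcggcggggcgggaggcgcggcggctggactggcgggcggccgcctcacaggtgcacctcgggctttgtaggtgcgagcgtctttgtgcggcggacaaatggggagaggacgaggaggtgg
Foxa3: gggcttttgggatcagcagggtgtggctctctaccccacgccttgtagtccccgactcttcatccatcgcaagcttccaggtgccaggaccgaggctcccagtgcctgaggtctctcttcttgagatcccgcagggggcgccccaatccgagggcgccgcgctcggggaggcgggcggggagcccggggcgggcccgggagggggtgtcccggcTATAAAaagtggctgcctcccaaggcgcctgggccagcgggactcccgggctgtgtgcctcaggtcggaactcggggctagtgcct

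Nr5a2 encodes LRH-1, an orphan nuclear receptor of bile acid and cholesterol genes. It read 7.99, 8.14 and 8.16 with diquat, 8.15, 8.05 and 7.87 with paraquat, and 8.46, 8.36 and 8.38 in control cells. No treated array reached the control range, with gaps of 0.20 and 0.21. Nr5a2 fell 1.23-fold with diquat (log2 change -0.30 ± 0.07 SE, limma adjusted p = 0.0319) and 1.30-fold with paraquat (-0.38 ± 0.07 SE, limma adjusted p = 0.0144). The diquat call was lost without control replicate 1, 2 or 3 (adjusted p = 0.119, 0.0814 and 0.0821), diquat replicate 1 (0.108) or paraquat replicate 2 (0.0534), and after centring each array on its median (0.0537). The paraquat call was lost without control replicate 1 (0.0704) or paraquat replicate 2 (0.0529).

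Hnf4a encodes the nuclear receptor most central to hepatocyte differentiation. It read 10.56, 10.54 and 10.57 with diquat, 10.67, 10.59 and 10.49 with paraquat, and 10.77, 10.78 and 10.68 in control cells. The diquat arrays lay close together (SD 0.015, n = 3) and below all controls, while paraquat replicate 1 came within 0.01 of the lowest control. The change of -0.19 ± 0.05 with diquat (SE, 1.14-fold lower) had a limma adjusted p of 0.04999, at the threshold, and that of -0.16 ± 0.05 with paraquat did not pass (SE, limma adjusted p = 0.119). The diquat call was lost without any of control replicates 1 to 3 (adjusted p = 0.157, 0.175 and 0.0563), diquat replicates 1 to 3 (0.115, 0.0857 and 0.0871) or paraquat replicate 2 (0.0772), and after centring (0.13). The single feature does not separate transcripts from the alternative Hnf4a promoters.

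The RefSeq table held 2 windows each for Hnf4a and Nr5a2, and the one of each that holds a match is shown. The other Hnf4a window, downstream at chr2:163546905-163547204, and the other Nr5a2 window held none of the 10 motifs. Which window is used in TAMH cells was not tested. The upstream Hnf4a window, chr2:163506607-163506906 on the plus strand of GRCm38.p6, held the ONECUT core as ATCAAT at position -59, a motif of 7.54% of windows. The Nr5a2 window at chr1:136960399-136960698, on the minus strand, held TATAAA on the other strand, as TTTATA, at position -181, a motif of 13.6% of windows. Across the 11 windows of the 7 factors with a promoter in the table, 7 motif copies were found. They were not confined to factors that passed. Foxa2, which did not pass, also held the ONECUT core, as ATTGAT at position -213 of 1 window. Another Foxa2 window held TTTATA at -208, and the Cebpa window held TATAAA at -30. Each of the 10 motifs was present in 0.925% to 13.6% of all 32851 windows, and an excess over that background was not tested.
Hnf4a: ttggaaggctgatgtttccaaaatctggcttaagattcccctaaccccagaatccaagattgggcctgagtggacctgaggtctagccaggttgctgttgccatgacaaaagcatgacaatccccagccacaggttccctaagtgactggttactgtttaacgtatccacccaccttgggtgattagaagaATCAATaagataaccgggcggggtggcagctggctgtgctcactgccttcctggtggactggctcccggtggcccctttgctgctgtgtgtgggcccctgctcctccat
Nr5a2: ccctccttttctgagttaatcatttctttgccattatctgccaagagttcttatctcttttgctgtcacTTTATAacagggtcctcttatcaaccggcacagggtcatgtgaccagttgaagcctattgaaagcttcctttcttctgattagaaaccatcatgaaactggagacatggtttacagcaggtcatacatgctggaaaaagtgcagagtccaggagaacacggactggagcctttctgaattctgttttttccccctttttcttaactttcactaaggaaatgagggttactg

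Cebpa encodes C/EBPA, a basic leucine zipper factor that drives metabolic genes and restrains proliferation in hepatocytes. It read 7.35, 7.19 and 7.18 with diquat, 7.27, 7.22 and 7.24 with paraquat, and 7.36, 7.33 and 7.16 in control cells, and the groups overlapped. The change was -0.04 ± 0.06 with each compound (SE, limma adjusted p = 0.729 with diquat and 0.872 with paraquat), with 95% intervals from -0.18 to 0.09 and from -0.18 to 0.10.

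Other members of the C/EBP family were counted beside Cebpa. Of 5 measured relatives 3 rose and 0 fell with diquat, and 2 rose and 0 fell with paraquat. Among all genes tested, 4.13% were called higher with diquat and 2.33% with paraquat. Ddit3, which encodes CHOP, a C/EBP partner of the stress response, was raised 1.74-fold by diquat and 2.13-fold by paraquat (limma adjusted p = 3.4e-06 and 6.7e-07). Cebpg rose 1.16-fold and 1.15-fold (limma adjusted p = 0.00972 and 0.015), although the paraquat call was lost without control replicate 1 or 2 or paraquat replicate 3. Cebpb, an activator of acute phase genes, rose 1.16-fold with diquat (limma adjusted p = 0.0302) and changed by 0.17 ± 0.05 with paraquat (SE, limma adjusted p = 0.093). Its diquat call was lost without any of control replicates 1 to 3, diquat replicate 1 or 3, or paraquat replicate 3. The change of Cebpa minus that of Cebpb was -0.25 ± 0.12 (SE) with diquat and -0.21 ± 0.09 (SE) with paraquat, with an exact permutation p of 0.2 for each (adjusted 0.286).

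**Figure D2:**
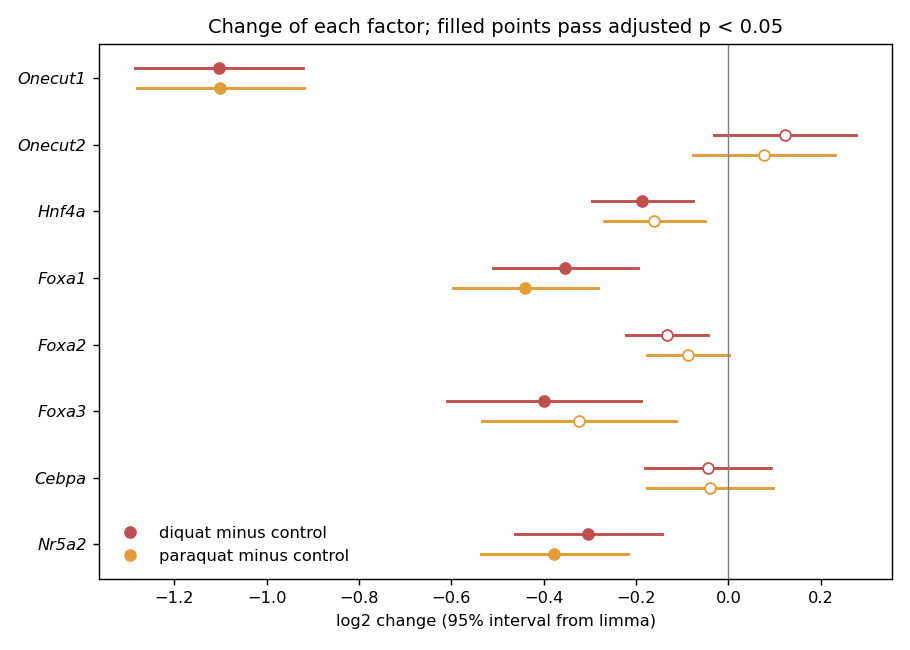
Log2 change (x axis) of each factor, with diquat above paraquat in each row and both relative to control cells. Lines are 95% intervals from limma, and filled points passed an adjusted p of 0.05. The intervals of Onecut1 lie between -1.28 and -0.92, apart from those of the other 7 factors.

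Between the compounds none of the 8 factors differed by the test, at unequal concentrations, 126 µM paraquat and 18 µM diquat. Whether these doses were equally toxic was not tested here. Paraquat minus diquat was 0.00 ± 0.08 (SE) for Onecut1, with a 95% interval from -0.18 to 0.18. The widest interval was that of Foxa3, from -0.13 to 0.29, around a difference of 0.08. Foxa1 and Nr5a2 had differences of -0.09 ± 0.07 and -0.07 ± 0.07 (SE), and the limma adjusted p of the 8 lay between 0.653 and 0.99. Across all genes limma called 0 of 22180 (0%) between the compounds, and 2371 had an unadjusted p under 0.05. The paraquat and diquat arrays overlapped for all 8 factors, while they did not for 10.5% of all genes.

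By the root-mean-square difference between log2 profiles over the 9 arrays, each set to its control mean, the 5 genes nearest to Onecut1 were Slc2a2 (0.125), Slc38a4 (0.131), Slc16a12 (0.133), Txnip (0.172) and Hpgd (0.223). Slc2a2, the hepatic glucose transporter GLUT2, read 6.41, 6.39 and 6.56 with diquat, 6.61, 6.67 and 6.69 with paraquat, and 7.69, 7.74 and 7.60 in control cells. It fell 2.33-fold with diquat and 2.03-fold with paraquat (limma adjusted p = 1.92e-06 and 5.34e-06). Slc38a4, an amino acid transporter, fell 2.36-fold and 2.15-fold, and Slc16a12, of the monocarboxylate transporter family, 1.90-fold and 2.14-fold. Txnip, which binds thioredoxin and restrains glucose uptake, fell 2.21-fold and 1.83-fold, and Hpgd, which degrades prostaglandins, 1.91-fold and 1.82-fold. Nearness of profile here is set mostly by a fall of like size in all 6 treated arrays.

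**Figure D3:**
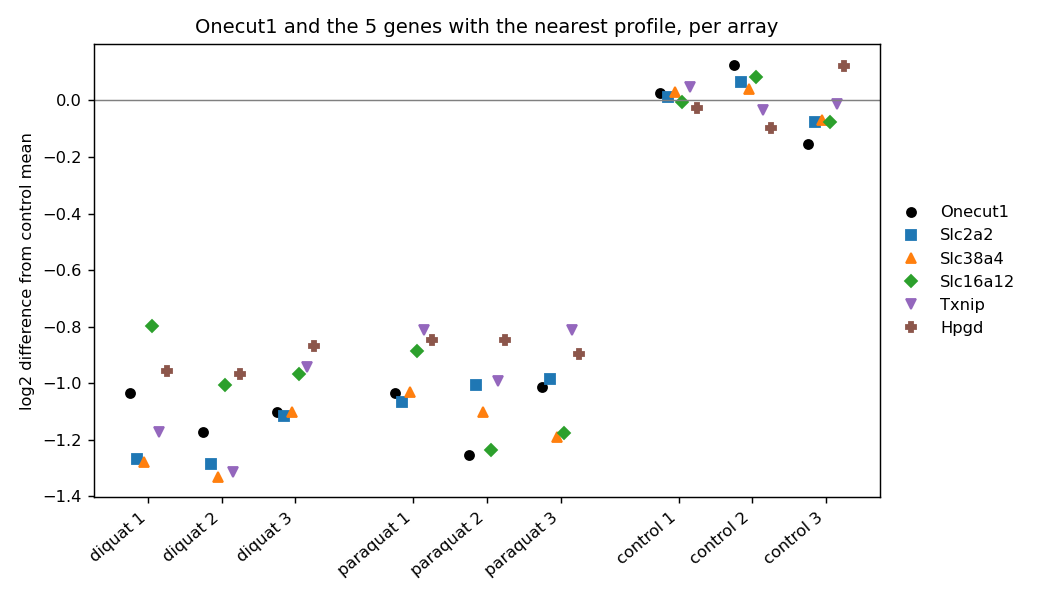
Log2 difference from the gene's own control mean (y axis) for Onecut1 and the 5 genes with the nearest profile, on each diquat, paraquat and control array. Each marker is 1 gene on 1 array. All 6 genes lie far below 0 on every treated array and near 0 on the control arrays.

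Other transcription factors of the liver were counted in a separate list of 46, of which 44 were measured. With diquat 7 fell and 2 rose, where 2.89% of all genes tested were called lower and 4.13% higher. With paraquat 4 fell and 1 rose, where the shares were 2.24% and 2.33%. The median changes were -0.06 and -0.05, against -0.02 and -0.003 over all genes tested. Nr1h4, the bile acid receptor FXR, read 7.63, 7.56 and 7.74 with diquat, 7.69, 7.60 and 7.49 with paraquat, and 8.10, 8.03 and 8.07 in control cells, with no overlap. It fell 1.34-fold and 1.39-fold (limma adjusted p = 0.00221 and 0.00153). Ppara, the fatty acid receptor, fell 1.19-fold and 1.22-fold (limma adjusted p = 0.0115 and 0.00632). Xbp1, a factor of secretory capacity, fell 1.31-fold with diquat (limma adjusted p = 0.00195) and changed by -0.20 ± 0.05 with paraquat (SE, limma adjusted p = 0.0686), a change that passed in 6 of 18 alternatives, including when diquat replicate 3 was left out. The repressor gene Bcl6 rose 1.18-fold with diquat (limma adjusted p = 0.00774), and its paraquat change of 0.10 did not pass. Cebpb stands both in this list and among the C/EBP relatives.

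Genes that these factors are known to bind or drive were counted next. Of 23 measured genes bound or driven by ONECUT1, FOXA or C/EBPA, 5 fell and 2 rose with diquat and 4 fell and 2 rose with paraquat, with medians of -0.04 and -0.02. The list pools genes of these factors, so its counts cannot be assigned to any 1 of them. For all genes tested the shares were 2.89% lower and 4.13% higher with diquat, and 2.24% and 2.33% with paraquat. Medians over all genes tested were -0.02 and -0.003. Slc2a2 belongs to this list, as does Ttr, the thyroid hormone carrier, which fell 1.27-fold and 1.25-fold (limma adjusted p = 0.00121 and 0.00228). G6pc, the glucose-6-phosphatase of glucose release, read 5.71, 5.62 and 5.69 with diquat, 5.60, 5.67 and 5.77 with paraquat, and 6.23, 6.05 and 6.29 in control cells. It fell 1.43-fold and 1.42-fold (limma adjusted p = 0.0012 and 0.00173), in the lower part of the range, where no detection call separates signal from background. Cdkn1a, the cell cycle inhibitor p21, rose 1.28-fold and 1.23-fold (limma adjusted p = 0.000946 and 0.00316).

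Of 10 measured bile acid and sterol genes driven by NR5A2, 3 fell and 0 rose with diquat and 1 fell and 0 rose with paraquat, with medians of -0.12 and -0.08. By comparison, 2.89% of all genes tested were called lower with diquat and 2.24% with paraquat, with medians of -0.02 and -0.003. Abcg5 and Abcg8 encode the subunits of a sterol exporter. Abcg5 fell 1.29-fold and 1.26-fold (limma adjusted p = 0.000521 and 0.00134). Abcg8 fell 1.38-fold with diquat (limma adjusted p = 0.00746), and its change of -0.30 ± 0.08 with paraquat did not pass (SE, limma adjusted p = 0.0725) although it did in 4 of 18 alternatives, including when control replicate 3 was left out. Abcb11, the bile salt export pump, fell 1.16-fold with diquat (limma adjusted p = 0.0128) and lost that call without control replicate 1 or 2 and after centring. Its values of 5.16 to 5.22 with diquat and 5.34 to 5.44 in control cells lay below every array median (5.95 to 6.04). No detection call separates signal from background there.

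**Figure D4:**
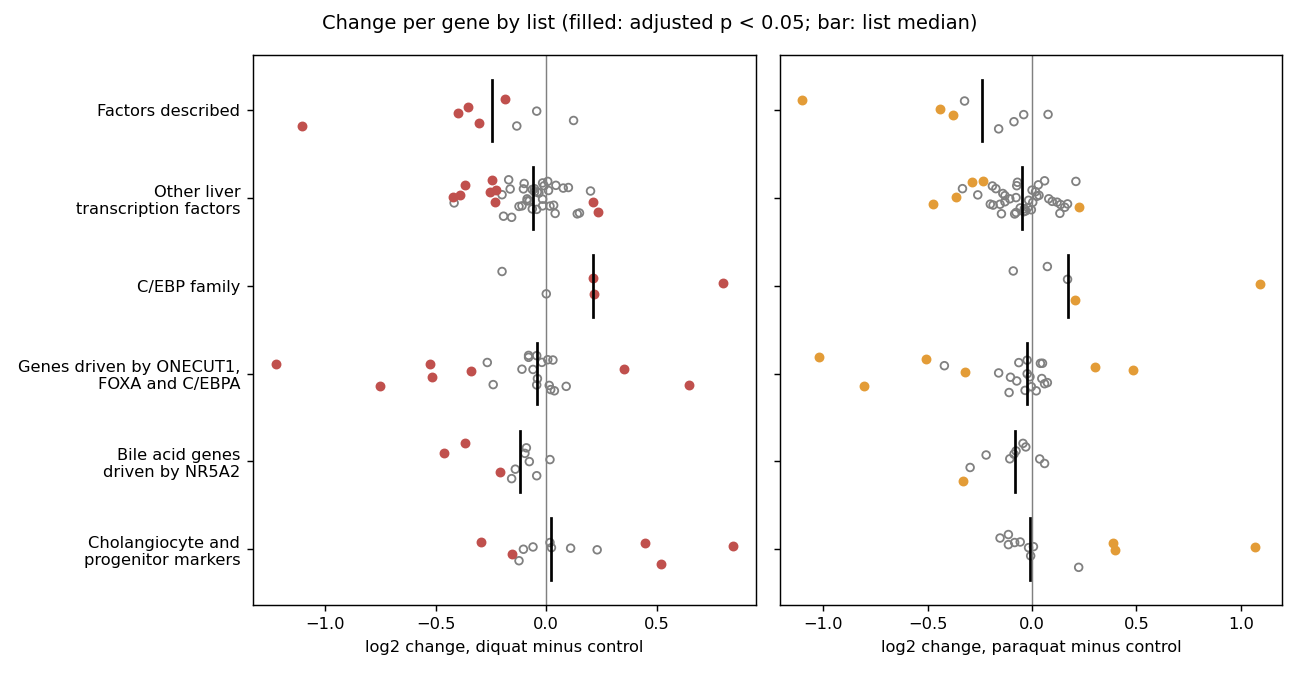
Log2 change of each measured gene (x axis) by list, for diquat on the left and paraquat on the right, relative to control cells. Filled points passed an adjusted p of 0.05, open points did not, and the black bar is the list median. With diquat and paraquat, the medians are -0.245 and -0.24 for the 8 factors and -0.06 and -0.05 for other liver factors. They are -0.04 and -0.02 for genes bound or driven by ONECUT1, FOXA or C/EBPA, and -0.12 and -0.08 for NR5A2 genes. Over all genes tested they are -0.02 and -0.003. The C/EBP relatives have medians of 0.21 and 0.17.

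Markers of other liver cell types were set beside the falls of the factors. All counts of markers stand against shares over all genes tested of 4.13% higher and 2.89% lower with diquat, and 2.33% and 2.24% with paraquat. Of 12 measured cholangiocyte and progenitor markers, 3 rose and 2 fell with diquat and 3 rose and 0 fell with paraquat. Krt23 rose 1.79-fold and 2.09-fold, Sox9, a factor of bile duct and progenitor cells, 1.36-fold and 1.31-fold, and Cldn4 1.43-fold and 1.32-fold. Krt7, a bile duct keratin, fell 1.23-fold with diquat (limma adjusted p = 0.00328). The mean of these 12 markers lay between 8.35 and 8.45 on diquat arrays, 8.38 and 8.44 on paraquat arrays, and 8.26 and 8.30 on control arrays. Their median change was only 0.02 with diquat and -0.01 with paraquat, and 5 and 7 of the 12 had changes below 0. The higher mean is therefore not a rise of the list in general. The mean of the 28 hepatocyte markers lay between 8.35 and 8.37 on diquat arrays, 8.31 and 8.47 on paraquat arrays, and 8.53 and 8.60 on control arrays, and 8 of them fell with diquat and 9 with paraquat. These markers include 11 of the 23 genes of the ONECUT1, FOXA and C/EBPA list, among them Slc2a2, Ttr and G6pc. They also include 2 of the 10 NR5A2 genes, so these counts share genes and are not separate results. The part of a shift in cell make-up in the changes of the 8 factors was not tested. None of the 10 stellate, 8 endothelial or 4 fetal liver markers passed with either compound, and Cd68 was the 1 macrophage marker of 8 called, 1.32-fold higher with diquat, a call that held in 8 of 18 alternatives and was lost without control replicate 2 or 3, diquat replicate 2 or 3, or any paraquat replicate.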

How the data were processed

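RNA was measured on 9 Affymetrix Mouse Gene 2.1 ST arrays, 1 per sample. The authors deposited log2 values, made with RMA in Affymetrix Expression Console 1.1 as the submitters' processing notes list them. RMA subtracts background, quantile-normalizes arrays and merges probes into 1 value per feature. The sources used here do not give its settings. Without scanner data, signal near background has no detection call, and 3 arrays per group bound the precision. Groups came from sample titles.

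Of 34472 features, 23521 carried 1 gene symbol, 1814 several and 9137 none in the platform annotation. For 1082 genes with several features the one with the highest mean was kept, which left 22180 genes. A model with 3 group means and no covariates was fitted to all 9 arrays by lmFit and eBayes (limma 3.58.1, R 4.3.3), and p-values were Benjamini-Hochberg adjusted over all of them. limma called 1558 genes for diquat (7.02%) and 1014 for paraquat (4.57%). Of the diquat calls 58.9% were higher, against 77.5% after centring and 45.2% after quantile normalization. The fit was tested on simulated data.

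The 8 factors and the gene lists were chosen with earlier results of these data known. Named were the 8 factors, up to 4 genes of each list past the adjusted p with the lowest values (2 if none passed), and the 5 nearest profiles of Onecut1 (3 for other factors that passed). Clone-named gene models, small RNAs and olfactory and vomeronasal receptors were passed over for profiles. Promoters are RefSeq sequences of GRCm38.p6. Onecut2 was named only. The counts of 1 further gene list are not reported here.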

Additional observations from a re-analysis of the deposited data

How the results depend on the processing

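In the 18 alternatives per comparison, all 8 factors kept the direction of their change with diquat and with paraquat, and the Onecut1 call held in each, between -1.18 and -1.04 with diquat and between -1.18 and -1.02 with paraquat. The number of the 8 factors called with diquat, 5, was 3 with the replicate block, 3 after centring, 2 with all features tested, and between 1 and 5 without single arrays. With paraquat it was 3, and 5 with array weights and 2 to 4 without single arrays. Between the compounds it stayed at 0. Genes called in all numbered 1558 with diquat, 959 with the 2 groups alone and 802 to 1908 without single arrays. They numbered 1014 with paraquat, 1623 with array weights and 574 to 1197 without single arrays. Between the compounds they numbered 0, and 4 without dim genes, 1 after centring, 4 after quantile normalization and 0 to 3 without single arrays. Fits without an array hold fewer samples, and the cause of the other shifts was not tested.

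Foxa2 passed with diquat without dim genes (adjusted p = 0.045) and after quantile normalization (0.0264). Hnf4a passed with paraquat under array weights (0.0468), as did Foxa3 (0.0419). Hnf4a, Foxa3 and Nr5a2 lost the diquat call with all features tested (0.074, 0.0523 and 0.0516). For 44 other named genes, 2220 of 2352 alternative values kept their side of the threshold, 102 lost a call, 30 gained one and 0 turned direction with a call. Some small changes that did not pass changed sign, such as that of Kmt2d with paraquat, between -0.02 and 0.07.

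Titles number the replicates 1 to 3 in each group, while the descriptions give 1 for all treated arrays. Correlations of same-numbered arrays' deviations from their group means lay between -0.192 and 0.198, and 3 of 9 exceeded 0.1. Those of differently numbered arrays lay between -0.331 and 0.284, and 4 of 18 exceeded 0.1. With 3 arrays per group these values cannot settle whether the numbers mark pairs. Because the descriptions differ from the titles, the main model did not use the numbers as pairs. With the replicate block 1416 genes were called with diquat, 930 with paraquat and 0 between them. The diquat adjusted p was 0.0503 for Hnf4a and 0.056 for Nr5a2.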

Other observations

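Genes with the profile nearest to the other factors were named by the same distance. Nearest to Nr5a2 were Klb (0.055), the FGF co-receptor beta-Klotho, Pwwp3b (0.0551) and Gpd1 (0.0562), a cytosolic glycerol phosphate dehydrogenase. Klb fell 1.25-fold with diquat and 1.34-fold with paraquat (limma adjusted p = 0.0231 and 0.007), and its diquat call was lost without control replicate 1, 2 or 3 or diquat replicate 1 or 3. Gpd1 fell 1.23-fold and 1.27-fold (limma adjusted p = 0.0079 and 0.00447). Nearest to Foxa1 were Gstm7 (0.0729), Enpp3 (0.073) and Apof (0.0738), and to Foxa3 Enpp3 (0.057), Gltpd2 (0.0812) and Fmo1 (0.086). Enpp3, an ectonucleotide pyrophosphatase, fell 1.30-fold with each compound (limma adjusted p = 0.0106 and 0.0122), and both calls were lost without control replicate 2, that of paraquat also without control replicate 1 or paraquat replicate 3. Apof, an apolipoprotein, fell 1.32-fold and 1.41-fold (limma adjusted p = 0.00992 and 0.00374). Nearest to Hnf4a were Ndufv3 (0.0318), Lbp (0.0342) and Sema3f (0.037).

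Coregulators that liver nuclear receptors recruit were counted as well. Of 14 measured, 2 rose and 0 fell with diquat, where 4.13% of all genes tested were called higher and 2.89% lower. With paraquat 0 passed in limma, where 4.57% of all genes tested were called. Kmt2d, a histone methyltransferase, rose 1.24-fold with diquat (limma adjusted p = 0.00494), and its paraquat change was 0.03. Ncoa3, a receptor coactivator, rose 1.12-fold with diquat (limma adjusted p = 0.0388), a call that held in 6 of 18 alternatives. The difference between the compounds did not pass for either gene (limma adjusted p = 0.248 and 0.519).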
